A study of Homo sapiens with 7 samples.

Results

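The genes of cholesterol and fatty acid synthesis were followed in HUDEP-2 cells, an immortalised human erythroid progenitor line, after a stretch of DNA upstream of TMCC2 had been silenced. Of the 29 genes in the set, 6 are of the mevalonate pathway, 10 of squalene and sterol synthesis and 8 of fatty acid synthesis and processing. The rest are 4 that encode or control the SREBP transcription factors, and 1 sterol transporter. Members were the rows of the count table whose gene symbol equals a listed name. All 29 were among its 32738 genes, and all 29 were among the 10212 genes with enough counts to be tested.

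All cells carried lentivirus for CRISPR interference, in which a guide RNA brings an inactive Cas9 to a chosen site to lower transcription nearby. Guide 1 (2 libraries) and guide 2 (2 libraries) were directed at a regulatory region lying upstream of the isoform of TMCC2 that erythroid cells use, and the controls (3 libraries) carried a non-targeting guide. All cells were expanded with SCF, erythropoietin, dexamethasone and doxycycline, infected, and differentiated for 72 h in a medium with plasma, serum, transferrin, heparin, insulin and erythropoietin at 3 IU/ml. Full-length cDNA libraries were made with Smart-seq2 and Nextera indexing. Everything rests on 1 cell line, each targeting guide is 1 guide RNA, and the labels do not say whether replicates were separate cultures, so the p-values measure the spread between these libraries, which may be technical. In bulk RNA, fewer cells of a kind and less of an RNA per cell cannot be told apart.

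Cells build cholesterol from acetyl-CoA through mevalonate, isoprenoids, squalene and lanosterol, and build fatty acids from the same acetyl-CoA through malonyl-CoA. The SREBP factors, made from SREBF1 and SREBF2, switch on both sets of enzymes when sterols in the endoplasmic reticulum are low: SCAP escorts them to the Golgi for cleavage, and INSIG1 holds the complex back when sterols are plentiful. Erythroid precursors need these lipids for the membrane that they remodel as they mature.

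Library totals ran from 9780800 to 11350113 counts. TMCC2, the targeted gene, stood at 229 and 219 CPM (counts scaled to library size, with TMM factors) with guide 1 and 229 and 260.4 CPM with guide 2, against 832, 839 and 937 CPM in non-targeting cells. Its log2 fold change for both guides together was -1.89 (SE 0.09, edgeR adjusted p = 4.43e-08). All 11 erythroid markers were tested, and their summed level was 265976 to 266894 CPM with guide 1, 254130 to 258309 CPM with guide 2 and 232333 to 264196 CPM in non-targeting cells. The 6 megakaryocyte markers summed to 176 to 213 CPM, with PF4 and PPBP at 0. The myeloid, lymphoid and stromal or endothelial lists each summed to at most 1.85 CPM, with MPO, CD3E and VWF among those at 0. One library stood apart from the rest: non-targeting replicate 1 had the lowest share of globin counts (23.0%, against 25.2 to 26.9% elsewhere). Its chi-square per degree of freedom over genes was 26.5 and 24.1 against the other non-targeting libraries, which differed from each other by 2.96. Counts, group medians and the values of genes that turn on this library are therefore also given without it.

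The promoter stretches below are those of SREBF2, of the genes with the smallest p-values (INSIG1 and SCD) and of a pair that was high in the same library (MSMO1 and STARD4). They come from RefSeq on GRCh38.p14 and run 5′ to 3′ on the gene's strand. Each is only the part around the matches that lie before the first exon of a protein-coding gene. Matches further on, such as the E-box (CACGTG) of INSIG1 counted below, are not shown. Capitals mark the CCAAT box (CCAAT, or ATTGG on the other strand), bound by NF-Y, a usual partner of SREBP, and the sterol regulatory element in the form TCACNCCAC (GTGGNGTGA on the other strand).
SREBF2 chr22:41832960-41833015 plus strand: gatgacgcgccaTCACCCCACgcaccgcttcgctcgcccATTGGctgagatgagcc
INSIG1 chr7:155297696-155297724 plus strand: cgccggcctcccATTGGttgcggccgcct
SCD chr10:100346992-100347063 plus strand: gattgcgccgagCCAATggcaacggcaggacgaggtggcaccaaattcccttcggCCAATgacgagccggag
MSMO1 chr4:165327472-165327609 plus strand: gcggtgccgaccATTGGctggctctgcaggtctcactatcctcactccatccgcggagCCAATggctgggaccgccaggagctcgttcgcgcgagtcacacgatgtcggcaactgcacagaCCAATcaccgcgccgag
STARD4 chr5:111512649-111512708 minus strand: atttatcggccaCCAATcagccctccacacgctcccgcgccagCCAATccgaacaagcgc

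Promoters, taken as 250 bases before to 50 after the start, were found for 26 of the 29 genes. On either strand, a CCAAT box was present in 19 of these 26 (73.1%), and in 39.7% of all 27305 genes with a promoter (34.6% of 35116 promoters). The sterol regulatory element as spelled was present in 1 of 26, SREBF2, and in 1.39% of all genes with a promoter (1.13% of promoters). The E-box CACGTG was present in 4 of 26 (INSIG1, LSS, SC5D and SCAP) and in 8.77% of all genes with a promoter (7.26% of promoters). The 27305 genes include many not tested here, whereas the 26 were all among the 10212 tested genes. Motifs were counted separately even where matches overlap, and a match describes the letters, not a bound site.

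The pathway was expressed throughout, at levels that spanned more than 2 orders of magnitude. Per kilobase of median transcript length, the mean level over the 7 libraries was highest for FDFT1, squalene synthase, at 262 CPM per kb, followed by INSIG1 at 121, ELOVL6, which lengthens long-chain fatty acids, at 95.8, and MSMO1, a C4-methylsterol oxidase, at 88.5 CPM per kb. CYP51A1, lanosterol demethylase, was last at 0.877 CPM per kb, on 9 to 21 counts per library. FDFT1, INSIG1, MSMO1 and CYP51A1 were among the 5 genes that kept their rank when the longest transcript was used, whereas FASN, the fatty acid synthase, was ranked 5 with the median length and 25 with the longest. Summed over the 29 genes, the level was 2201 and 2170.1 CPM with guide 1, 2174 and 2306 CPM with guide 2, and 2302, 2205 and 2175 CPM in non-targeting cells. The summed levels of the groups overlapped.

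None of the 29 genes passed the test in any of the 4 comparisons, each made with two-sided quasi-likelihood tests in edgeR and with p-values adjusted over all 10212 genes. For both guides against non-targeting, 0 of 29 were called, beside 0.0196% of all genes (2 genes, TMCC2 among them). For guide 1 it was 0 of 29 beside 0.0294%, for guide 2 it was 0 of 29 beside 0.00979%, and for guide 2 against guide 1 it was 0 of 29 beside 0% of all genes. For both guides, the median log2 fold change of the 29 was -0.01, beside -0.01 over all tested genes, with 13 above 0 and 16 below. Single values ran from -0.36 to 0.36, and their standard errors from 0.08 to 0.36. The 95% intervals of all 29 lay between -0.92 and 0.77. At an unadjusted p under 0.05 the count was 3 of 29 for both guides (10.3%, beside 4.19% of all genes), 3 for guide 1 (beside 4.78%), 0 for guide 2 (beside 2.75%) and 1 for guide 2 against guide 1 (beside 2.86%). Without non-targeting replicate 1 these counts were 4 of 29 for both guides (13.8%, beside 10.5%), 5 for guide 1 (17.2%, beside 7.37%), 7 for guide 2 (24.1%, beside 14.9%) and 6 for guide 2 against guide 1 (20.7%, beside 13.0%). The median for both guides was then 0.02, with 15 above 0 and 14 below.

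**Figure D1:**
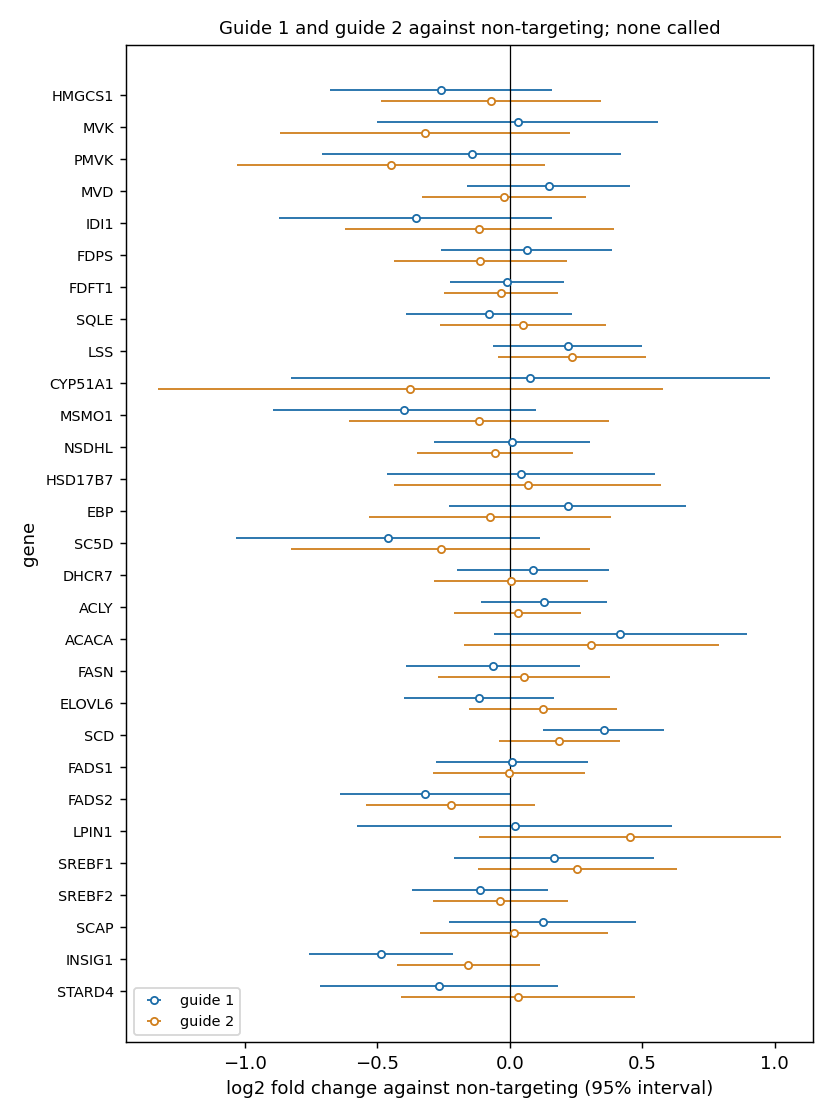
Log2 fold changes (points) with 95% intervals (lines) of the 29 genes for guide 1 (blue) and guide 2 (orange) against non-targeting, from the edgeR fit, in pathway order. No gene was called; the intervals of INSIG1, SCD and, by a narrow margin, FADS2 leave out 0 for guide 1, and every guide 2 interval takes in 0.

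Among the 6 mevalonate genes, none passed and the median log2 fold change for both guides was -0.16, with 1 gene above 0 and 5 below. It was -0.08 without non-targeting replicate 1, with 2 above 0 and 4 below. HMGCS1, which makes HMG-CoA, stood at 25.02 and 28.0 CPM with guide 1 and 28.1 and 32.3 CPM with guide 2, against 41.9, 25.2 and 28.0 CPM in non-targeting cells. IDI1, the isomerase of isopentenyl diphosphate, stood at 41.8 and 42.4 CPM with guide 1 and 43.3 and 56.2 CPM with guide 2, against 79.1, 39.0 and 43.2 CPM in non-targeting cells. In both genes non-targeting replicate 1 was the highest of the 7 libraries and the other libraries overlapped. The log2 fold change of IDI1 for both guides was -0.24 (SE 0.20), and 0.16 (SE 0.10) without that library. For HMGCS1 it was -0.17 (SE 0.16) with that library and 0.09 (SE 0.11) without it. The mevalonate kinase MVK and the phosphomevalonate kinase PMVK were the lowest of the group, at 4.18 ± 0.49 and 3.75 ± 1.17 CPM with guide 2 (SD, n = 2), against 5.22 ± 0.79 and 5.14 ± 0.50 CPM in non-targeting cells (SD, n = 3). Their guide 2 libraries lay below all non-targeting libraries, on 31 to 68 counts per library in all groups. With guide 1, MVK and PMVK stood at 5.35 ± 1.35 and 4.63 ± 1.11 CPM (SD, n = 2), and those libraries overlapped the non-targeting ones. MVD, the decarboxylase of the pathway, and FDPS, which makes farnesyl diphosphate, averaged 75.3 ± 6.15 and 25.3 ± 2.73 CPM with the guides (SD, n = 4), against 72.1 ± 12.4 and 25.7 ± 2.31 CPM in non-targeting cells (SD, n = 3).

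Of the 10 squalene and sterol genes none passed, and the median log2 fold change for both guides was -0.02, with 4 above 0 and 6 below. It was 0.03 without non-targeting replicate 1, with 6 above 0 and 4 below. FDFT1, the step that commits farnesyl diphosphate to sterols, stood at 514 and 506 CPM with guide 1 and 483 and 524 CPM with guide 2, against 501, 524 and 517 CPM in non-targeting cells. Its log2 fold change was -0.02 (SE 0.08, 95% interval -0.20 to 0.16), the most precise value of the set. LSS, which closes squalene epoxide into lanosterol, stood at 100.3 and 108 CPM with guide 1 and 109 and 101 CPM with guide 2, against 75.6, 95.7 and 97.7 CPM in non-targeting cells. All 4 guide libraries of LSS lay above all 3 non-targeting libraries, by a margin that was narrow for non-targeting replicates 2 and 3. Its log2 fold change was 0.23 (SE 0.11, edgeR adjusted p = 0.998), and 0.12 (SE 0.07) without non-targeting replicate 1.

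MSMO1 stood at 75.8 and 75.9 CPM with guide 1 and 80.6 and 104 CPM with guide 2, against 146, 73.9 and 79.3 CPM in non-targeting cells. SC5D, the sterol desaturase acting late in the pathway, stood at 9.85 and 10.2 CPM with guide 1 and 10.8 and 12.3 CPM with guide 2, against 20.4, 9.73 and 11.1 CPM in non-targeting cells. For both genes non-targeting replicate 1 alone stood far above the other libraries, and guide 2 replicate 2 came next. The log2 fold change for both guides was -0.26 (SE 0.19) for MSMO1 and -0.36 (SE 0.22) for SC5D, and 0.13 (SE 0.08) and 0.05 (SE 0.15) in the same order without that library. SQLE, squalene epoxidase, averaged 85.5 ± 8.47 CPM with the guides (SD, n = 4) and 86.2 ± 14.5 CPM in non-targeting cells (SD, n = 3). NSDHL, which helps remove the C4 methyl groups, averaged 54.1 ± 5.32 CPM with the guides and 55.0 ± 4.67 CPM in non-targeting cells. DHCR7, the last reductase before cholesterol, averaged 62.7 ± 2.11 CPM with the guides and 60.8 ± 8.63 CPM in non-targeting cells. HSD17B7, a sterol ketone reductase, EBP, the sterol isomerase, and CYP51A1 were low, at 4.90 ± 0.61, 10.0 ± 2.01 and 1.45 ± 0.28 CPM with the guides, against 4.72 ± 0.33, 9.48 ± 1.31 and 1.61 ± 0.71 CPM in non-targeting cells.

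Of the 8 fatty acid genes none passed in the comparison of both guides, the median log2 fold change was 0.04, and 6 were above 0 and 2 below. The median was 0.08 without non-targeting replicate 1, with 5 above 0 and 3 below. SCD, the desaturase that makes oleate and palmitoleate (chromosome 10, 100347124 to 100364834, plus strand, GRCh38), stood at 232 and 251 CPM with guide 1 and 223 and 207 CPM with guide 2, against 196, 189 and 183 CPM in non-targeting cells. The 4 guide libraries all lay above the 3 non-targeting libraries. The log2 fold change was 0.27 for both guides (SE 0.09, 95% interval 0.08 to 0.46, edgeR adjusted p = 0.998), 0.35 for guide 1 (SE 0.11, edgeR adjusted p = 0.877) and 0.19 for guide 2 (SE 0.11, edgeR adjusted p = 0.999). Without non-targeting replicate 1, SCD was called higher for both guides (0.30, SE 0.06, edgeR adjusted p = 0.0201) and for guide 1 (0.38, SE 0.07, edgeR adjusted p = 0.00601). That fit called 0.524% of all genes for both guides, 0.584% for guide 1 and 1.27% for guide 2. For guide 2 it gave SCD 0.21 (SE 0.07, edgeR adjusted p = 0.143). Some of the 11 erythroid markers, 0 of which were called with all 7 libraries, were called lower in the same fit: KLF1, an erythroid transcription factor, for both guides (-0.54, SE 0.06, edgeR adjusted p = 1.68e-06) and for guide 1 (-0.62, SE 0.08, edgeR adjusted p = 2.16e-06), and KLF1, HBA1 and HBA2 for guide 2. At an unadjusted p under 0.05 there were 6 of 11 for both guides, 2 for guide 1 and 8 for guide 2. With all 7 libraries the log2 fold change of KLF1 was -0.41 for both guides (SE 0.12, edgeR adjusted p = 0.998). It was -0.49 for guide 1 (SE 0.14) and -0.34 for guide 2 (SE 0.14). The part of these markers in the values of SCD and INSIG1 was not tested. Over all alternatives of the analysis the edgeR or DESeq2 adjusted p of SCD for both guides ran from 0.0201 to 1.00, and for guide 1 from 0.00601 to 1.00.

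FADS2, the desaturase that opens the polyunsaturated fatty acid route, stood at 26.7 and 24.01 CPM with guide 1 and 29.6 and 24.6 CPM with guide 2, against 28.7, 33.5 and 32.9 CPM in non-targeting cells. The guide 1 libraries lay below the non-targeting ones, while guide 2 replicate 1 lay among them. Its log2 fold change for both guides was -0.27 (SE 0.12, edgeR adjusted p = 0.998), and -0.34 (SE 0.10, edgeR adjusted p = 0.151) without non-targeting replicate 1, in a range from 0.151 to 1.00 over all alternatives. FADS1, the next desaturase, overlaps FADS2 on the other strand of chromosome 11, and the strand setting of the counts is not given in the sources used here, so reads from the shared stretch could count for either. FADS1 averaged 37.6 ± 2.56 CPM with the guides (SD, n = 4) and 37.6 ± 1.48 CPM in non-targeting cells (SD, n = 3).

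ACACA, acetyl-CoA carboxylase, which makes malonyl-CoA, stood at 18.03 and 12.3 CPM with guide 1 and 10.9 and 17.2 CPM with guide 2, against 12.01, 12.2 and 9.70 CPM in non-targeting cells. Its replicates differed within each guide by as much as the groups did, and the log2 fold change of 0.36 for both guides had an SE of 0.19. ACLY, which makes cytosolic acetyl-CoA from citrate, averaged 156 ± 9.82 CPM with the guides (SD, n = 4) and 148 ± 7.34 CPM in non-targeting cells (SD, n = 3). FASN averaged 25.1 ± 1.79 CPM with the guides and 25.2 ± 2.95 CPM in non-targeting cells. ELOVL6 averaged 178 ± 24.3 CPM with the guides and 177 ± 21.3 CPM in non-targeting cells. LPIN1, a phosphatidate phosphatase of lipid synthesis, averaged 4.90 ± 0.98 CPM with the guides and 4.16 ± 1.25 CPM in non-targeting cells, on 38 to 64 counts per library.

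INSIG1, the sterol-regulated anchor of SCAP (chromosome 7, 155297776 to 155310235, plus strand, GRCh38), had the smallest p-value of the set. Neither INSIG1 nor SCD overlaps an exon of another gene in GENCODE v29. It stood at 129 and 127 CPM with guide 1 and 145 and 176 CPM with guide 2, against 197, 180.3 and 159 CPM in non-targeting cells. The guide 1 libraries lay below every other library, and guide 2 lay between guide 1 and non-targeting with overlap at its upper end. The log2 fold change was -0.49 for guide 1 (SE 0.13, 95% interval -0.76 to -0.21, edgeR adjusted p = 0.877), -0.16 for guide 2 (SE 0.13, 95% interval -0.43 to 0.11, edgeR adjusted p = 0.999) and -0.32 for both (SE 0.10, 95% interval -0.55 to -0.10, edgeR adjusted p = 0.998). Without non-targeting replicate 1, INSIG1 was called lower for guide 1 (-0.41, SE 0.09, edgeR adjusted p = 0.00969). In that fit it was not called for both guides (-0.25, SE 0.07, edgeR adjusted p = 0.131). Over all alternatives the adjusted p for guide 1 ran from 0.00969 to 1.00 and that for both guides from 0.131 to 1.00.

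The other genes of the SREBP group did not pass. SREBF2, the factor for sterol genes, stood at 158 and 153 CPM with guide 1 and 163 and 165 CPM with guide 2, against 153, 190.5 and 159.8 CPM in non-targeting cells. SREBF1, the factor for fatty acid genes, averaged 20.7 ± 1.25 CPM with the guides (SD, n = 4) and 17.9 ± 3.56 CPM in non-targeting cells (SD, n = 3). SCAP averaged 53.8 ± 3.82 CPM with the guides and 51.2 ± 11.1 CPM in non-targeting cells. In all 3 genes non-targeting replicate 1 was the lowest of the 7 libraries and the groups overlapped. STARD4, a cytosolic carrier of cholesterol, stood at 50.7 and 47.5 CPM with guide 1 and 52.3 and 68.6 CPM with guide 2, against 80.8, 44.1 and 52.4 CPM in non-targeting cells. Its log2 fold change for both guides was -0.12 (SE 0.17), and 0.18 (SE 0.10) without non-targeting replicate 1.

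**Figure D2:**
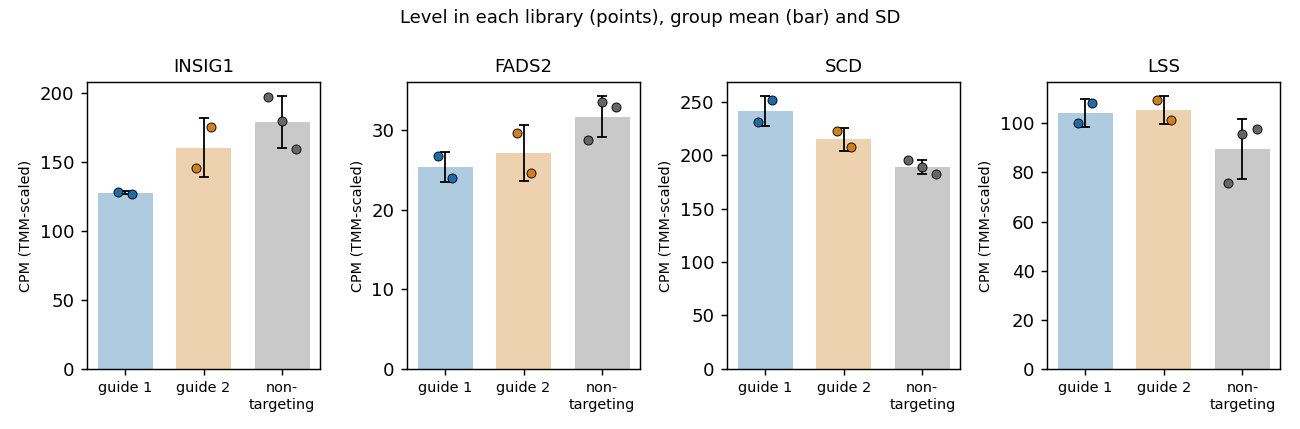
Level in CPM (TMM-scaled, axis from 0) of INSIG1, FADS2, SCD and LSS in each library (points), with the group mean (bar) and SD (line), for guide 1 and guide 2 (2 libraries each) and non-targeting (3). The 4 guide libraries of SCD and LSS lie above the 3 non-targeting libraries, and INSIG1 with guide 1 (129 and 127 CPM) lies below every other library.

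Counted without a test, 2 of 29 genes (LSS and SCD) had all 4 guide libraries above all 3 non-targeting libraries, beside 3.03% of all genes, and 0 had all 4 below, beside 2.37%. With guide 1 alone, ACACA, ACLY, LSS and SCD lay above (4 of 29, beside 11.3%) and FADS2 and INSIG1 below (2 of 29, beside 10.3%). With guide 2 alone, LSS and SCD lay above (2 of 29, beside 8.16%) and MVK and PMVK below (2 of 29, beside 6.86%). The guide 1 and guide 2 comparisons share the non-targeting libraries.

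Guide 2 against guide 1 compares 2 guides to the same region. Its median log2 fold change over the 29 genes was 0.02, beside 0.00 over all tested genes, with 15 above 0 and 14 below. INSIG1 was 0.33 (SE 0.14, 95% interval 0.03 to 0.63, edgeR adjusted p = 0.983), and 0.33 (SE 0.09, edgeR adjusted p = 0.0649) in the fit without non-targeting replicate 1, where 0.317% of all genes were called. Over all alternatives the adjusted p of this difference ran from 0.0649 to 1.00. Libraries did not overlap for 10 genes that were higher with guide 2 (34.5%, beside 21.9% of all genes) and for 5 that were lower (17.2%, beside 22.2%). The 10 were HMGCS1, IDI1, MSMO1, SC5D, FASN, ELOVL6, LPIN1, SREBF2, INSIG1 and STARD4, and the 5 were MVD, CYP51A1, DHCR7, SCD and SCAP. Of the 10, HMGCS1, IDI1, MSMO1, SC5D and STARD4 have transcripts of low GC content, from 38.1 to 41.1%. The others have 44.6% (ELOVL6), 46.7% (INSIG1), 50.7% (LPIN1), 58.1% (SREBF2) and 65.3% (FASN). Of the 5, CYP51A1 and SCD have 41.4 and 47.1%, and DHCR7, SCAP and MVD have 57.9, 61.1 and 65.2%. Across all tested genes, a library's deviation from the mean of all libraries had a Spearman rho with GC content of 0.42 and 0.28 with guide 1. With guide 2 the rho was 0.09 and -0.31. The part of GC content in these counts was not tested.

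**Figure D3:**
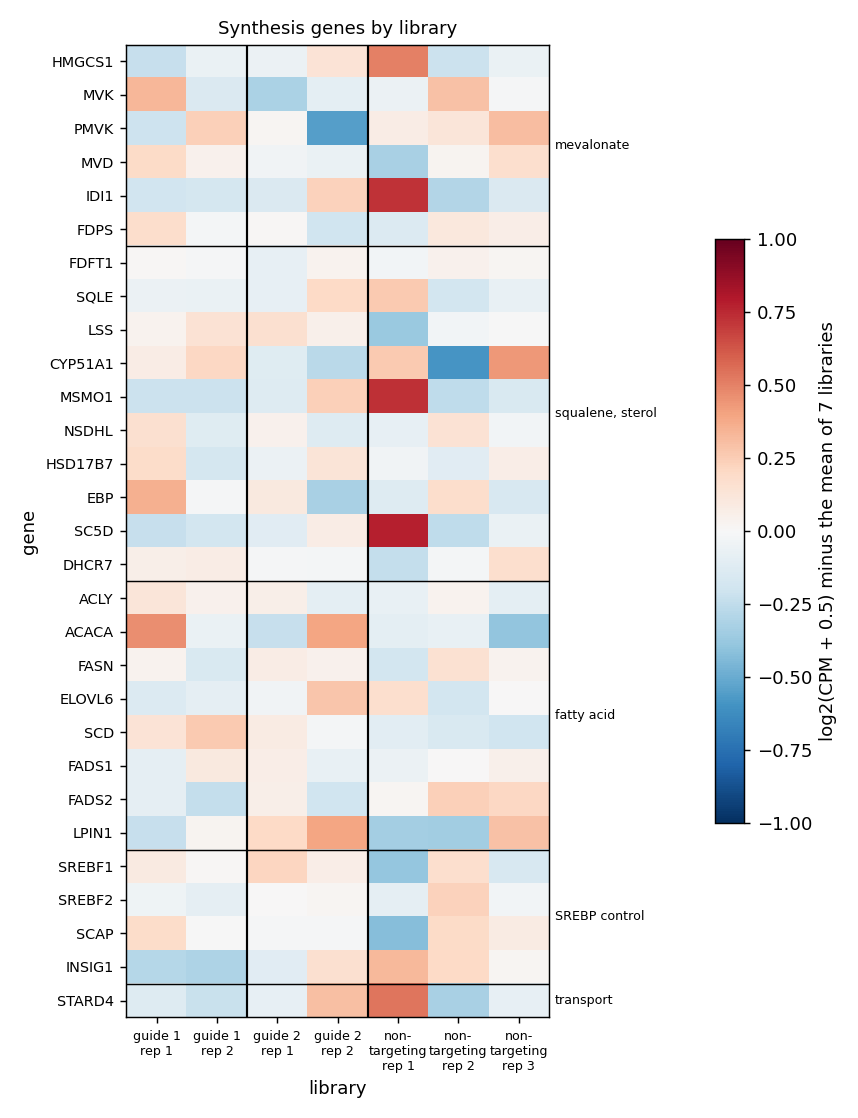
Log2(CPM + 0.5) of each gene in each library minus its mean over the 7 libraries (colour, red higher, blue lower), with guide 1, guide 2 and non-targeting libraries from left to right and genes in pathway order. The strongest red cells are those of SC5D, IDI1, MSMO1, STARD4 and HMGCS1 in non-targeting replicate 1.

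The widest differences in the set lay within the non-targeting group. In non-targeting replicate 1 the level was 1.96 times the mean of replicates 2 and 3 for SC5D, 1.93 times for IDI1, 1.91 times for MSMO1, 1.68 times for STARD4 and 1.57 times for HMGCS1. These 5 of 29 genes (17.2%) passed 1.5 times, beside 12.7% of all genes. At the other end SCAP stood at 0.674, MVD at 0.743 and SREBF1 at 0.753 times that mean. Replicate 1 was the highest of the 7 libraries for 7 genes (24.1%, beside 29.7% of all genes) and the lowest for 7 (24.1%, beside 26.9%).

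The genes that were high in this library had transcripts of low GC content: 38.1% for MSMO1, 38.2% for SC5D, 39.3% for STARD4, 40.2% for HMGCS1 and 41.1% for IDI1. Those that were low had 61.1% (SCAP), 63.7% (SREBF1) and 65.2% (MVD). Across the 29 genes the log2 difference of replicate 1 from the other non-targeting libraries had a Spearman rho of -0.91 with GC content. Across 9424 tested genes with a GC value the rho was -0.71. With the length of the longest transcript the rho was -0.05 across the 29 genes and 0.27 across the 9424. These are descriptions across genes of the same libraries, which are not independent. Of all tested genes with under 40% GC, 45.2% passed 1.5 times in replicate 1, and 3 of 3 members did; at 60% GC or more, 1.98% did, and 0 of 5 members. The same low-GC genes were also higher in guide 2 replicate 2 than in guide 2 replicate 1, with a rho of -0.55 across the 29 genes and -0.28 across all. Each library was then corrected for its trend with GC content. From means of logarithms, the ratio of replicate 1 to the others was 1.32 for IDI1, 1.21 for SC5D and 1.18 for MSMO1. It was 1.08 for STARD4 and 1.04 for HMGCS1. The trend was fitted to levels without TMM factors and taken from TMM-scaled levels, so level differences between libraries were removed again. With TMM factors of 1.07 for replicate 1 and 0.98 and 0.95 for replicates 2 and 3, these ratios are too low. The corrected fit, built in the same way, called 0 of 29 genes for both guides and for guide 1. For guide 1, SCD was at 0.40 (edgeR adjusted p = 0.169) and INSIG1 at -0.42 (edgeR adjusted p = 0.153).

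**Figure D4:**
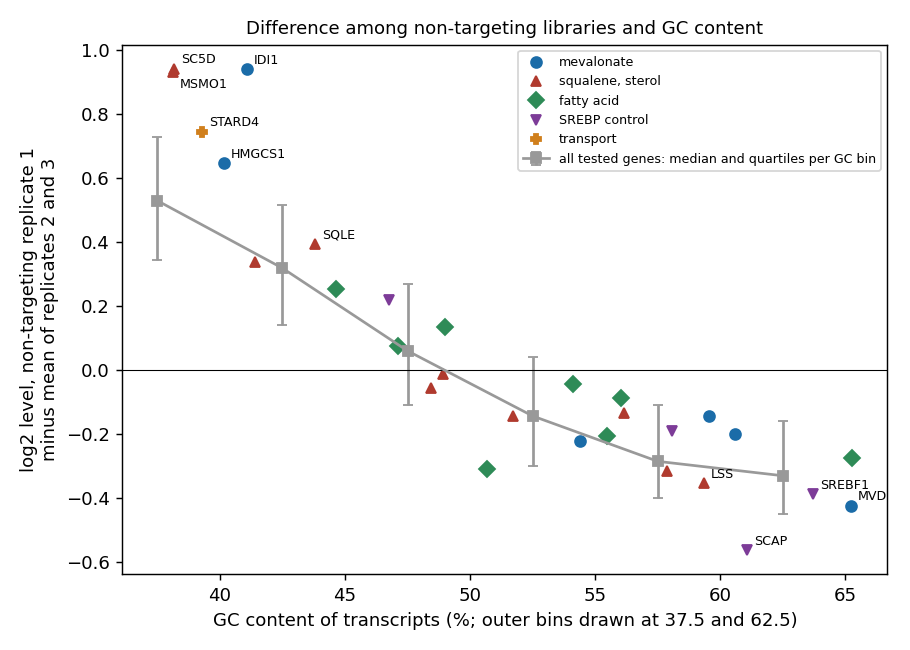
Log2 level in non-targeting replicate 1 minus the mean of replicates 2 and 3 (y axis) against transcript GC content in percent (x axis) for the 29 genes, coloured by pathway group, with the median and quartiles of all tested genes per GC bin in grey. SC5D, IDI1, MSMO1, STARD4 and HMGCS1 lie at the upper left and SCAP, MVD and SREBF1 at the lower right, in the same direction as the grey medians; these 5 genes lie above the upper quartile of their GC bin, and SCAP below the lower one.

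Other genes of the pathway, from lists drawn up beside the 29, also gave no call. Of 6 further sterol synthesis genes, 6 were tested, and 0 were called in any comparison, with a median log2 fold change of -0.03 for both guides with and without non-targeting replicate 1. GGPS1, which makes geranylgeranyl diphosphate, was -0.17 (SE 0.16) and LBR, a sterol reductase of the nuclear envelope, was -0.13 (SE 0.14). In both genes non-targeting replicate 1 was more than 1.5 times the mean of replicates 2 and 3, at 1.56 for GGPS1 and 1.51 for LBR. Of 7 further SREBP control genes, 7 were tested and 0 called, with a median of -0.13 (1 above 0, 6 below) and, without non-targeting replicate 1, of -0.05 (3 above, 4 below). RNF139, a ubiquitin ligase of the endoplasmic reticulum, was -0.23 (SE 0.14), and ERLIN1, which binds sterols in that membrane, was 0.16 (SE 0.17). MBTPS2, the protease that makes the second cut of SREBP, was named after its values were seen. It stood at 3.25 and 3.08 CPM with guide 1 and 4.21 and 2.74 CPM with guide 2, against 5.74, 3.78 and 5.93 CPM in non-targeting cells. Its log2 fold change was -0.63 for both guides (SE 0.24, edgeR adjusted p = 0.998), and -0.53 (SE 0.25) without non-targeting replicate 1.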

How the data were processed

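The values that the authors deposited are raw read counts, 1 row per gene and 1 column per library, per the file header. STAR and the builds GRCh37 and hg19 are named per the submitters' processing notes. The counting program, annotation, strand setting and treatment of multi-mapped reads were not stated by the labels or notes used. In GENCODE v29, 14 of the 29 members overlap an exon of a gene on the other strand and 3 one on the same strand, and their counts are uncertain to that extent. No row lacked a gene name.

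Counts were tested in edgeR 4.0.16 (R 4.3.3): filterByExpr (minimum count 10), TMM, a quasi-likelihood model with 3 groups over 7 libraries, 4 residual degrees of freedom, and a biological coefficient of variation of 12.5%. Calls took a p under 0.05 after Benjamini-Hochberg adjustment over the 10212 genes. DESeq2 1.42.0 served as an alternative. Levels are TMM-scaled CPM with SD, logarithms of levels use a pseudocount of 0.5 CPM, and marker sums are CPM of total counts. The scripts were tested on simulated data. Transcript lengths, GC content and gene positions come from GENCODE v29 on GRCh38, matched by symbol (GC for 92.3% of tested genes), and promoters from RefSeq. The GC correction is a loess fit per library to levels without TMM factors, applied on top of TMM scaling.

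Members and lists were chosen with earlier results of these data known. All 29 members are named, and of each other list up to 2 genes by unadjusted p for both guides with a mean of at least 5 CPM. Whether replicate numbers pair the libraries is not known, and the reported fit does not pair them. The alternatives changed the scaling, the test, the filter, the samples in the fit and the block, left out each library, or corrected for GC content. Without molecular identifiers, amplification copies could not be told from separate molecules. Whether the intervals and SDs cover culture differences is not known.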

Additional observations from a re-analysis of the deposited data

How the results depend on the processing

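No member was called under any alternative other than leaving out non-targeting replicate 1. Leaving out 1 library at a time gave 0 to 1 members called for both guides, 0 to 2 for guide 1, and 0 each time for guide 2 and for guide 2 against guide 1. Every member call came without non-targeting replicate 1 (SCD for both guides, SCD and INSIG1 for guide 1). The counts over all genes moved more. For both guides, 2 genes were called in the reported fit, 4 by DESeq2, 8 with no filter on low counts, 12 with the GC content correction, which was chosen after seeing the data, and 1 to 53 with 1 library left out. For guide 1, 3 genes were called, 6 by DESeq2, 19 with no filter, 19 with the GC correction and 1 to 59 with 1 library left out. For guide 2, 1 gene was called, 3 by DESeq2, 4 with no filter, 3 with the GC correction and 1 to 128 with 1 library left out. For guide 2 against guide 1, 0 genes were called, and 292 had an unadjusted p under 0.05. There, 2 were called by DESeq2, 2 with no filter, 2 with the GC correction, 19 with only these groups in the fit and 0 to 32 with 1 library left out. All the upper ends came without non-targeting replicate 1. The cause of these moves was not tested.

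With the replicate number as a block, 1 gene was called for both guides, 2 for guide 1, 1 for guide 2 and 1 for guide 2 against guide 1, and no member was. Same-numbered libraries correlated at -0.22 to 0.04 in their deviations from the group means. In a group of 2 libraries these deviations mirror each other, so the values cannot show whether the numbers pair libraries. The median of the members moved to 0.026 for guide 2 and 0.082 for guide 2 against guide 1 when total counts replaced TMM. With 1 library left out it ran from -0.05 to 0.02 for both guides, -0.04 to 0.00 for guide 1, -0.04 to 0.02 for guide 2 and 0.016 to 0.098 for guide 2 against guide 1. Of 1595 member values under the alternatives, 137 had the other sign, none of them called, and 3 became calls. Fits with only the groups compared were not run for both guides, which use all 3 groups. With 4 residual degrees of freedom and standard errors up to 0.36, small changes in the weakly expressed members (CYP51A1, MVK, PMVK, LPIN1, HSD17B7) were not detectable at this depth.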

Other observations

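Further gene lists next to the synthesis genes were measured. Of 17 other fatty acid genes, 15 were tested, and 0 were called in any comparison, with 5 above 0 and 10 below for both guides and a median log2 fold change of -0.15. The median was -0.01 without non-targeting replicate 1, with 6 above 0 and 9 below. ACSL1, which activates long-chain fatty acids, averaged 65.6 ± 3.86 CPM with the guides (SD, n = 4) and 58.0 ± 2.11 CPM in non-targeting cells (SD, n = 3), and its log2 fold change was 0.18 (SE 0.10). ACSL4, which favours arachidonate, averaged 28.2 ± 2.58 CPM with the guides and 32.1 ± 6.43 CPM in non-targeting cells, with a log2 fold change of -0.19 (SE 0.14). HSD17B12, a reductase of fatty acid elongation singled out after its values were seen, was 2.06 times as high in non-targeting replicate 1 as in replicates 2 and 3, with a GC content of 41.4%.

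Of 14 genes of sterol export and traffic, 11 were tested and 0 called, with 7 above 0 and 4 below and a median of 0.05. The median was also 0.05 without that library, with 6 above 0 and 5 below. LIPA, the lysosomal lipase that frees cholesterol from its esters, averaged 19.8 ± 3.25 CPM with the guides (SD, n = 4) and 24.5 ± 6.23 CPM in non-targeting cells (SD, n = 3), where replicate 1 was 1.52 times the mean of the others. STARD3, a sterol carrier of late endosomes, averaged 34.2 ± 2.63 CPM with the guides and 30.6 ± 3.79 CPM in non-targeting cells. Without non-targeting replicate 1, each list still had 0 calls for both guides.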
